A study of Mus musculus with 27 samples.

Results

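The suppressor of cytokine signalling (SOCS) family was followed across bulk RNA sequencing libraries of 3 cultured mouse cell types. The 8 listed family genes, Socs1 to Socs7 and Cish, were taken by symbol from the count table, which holds 25192 gene symbols, and all 8 were present. All 8 also passed the filter on low counts in each cell type.

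SOCS proteins are intracellular brakes on cytokine receptors. Each has an SH2 domain that binds phosphorylated tyrosines and a SOCS box that recruits elongin B, elongin C and cullin 5, so that bound receptors or kinases can be ubiquitinated. CIS (encoded by Cish), SOCS1, SOCS2 and SOCS3 are the classical feedback members, whose genes are induced by JAK-STAT signalling and which then act on the same pathway. SOCS1 and SOCS3 also block Janus kinases directly, SOCS3 acts mainly on receptors that share gp130, and SOCS4 to SOCS7 are better known for effects on growth factor and insulin signalling. In macrophages SOCS1 and SOCS3 are known regulators of responses to interferons and to interleukin-6.

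The cells were macrophages grown from bone marrow (BMDM), fibroblasts from embryos (MEF) and another type labelled aortic endothelial (MAEC). They received imidazole propionate (ImP), a histidine product of the gut microbiota, for 1 or 2 h at a dose of 10 µg/mL, or were left unstimulated (0 h). There were 9 groups with 3 libraries in each, and the series asks which transcripts ImP raises in each cell type. The labels give neither strain, genotype, sex nor age, and none of the groups is a vehicle control at 1 or 2 h, so ImP and time after the start cannot be told apart. Nothing in the labels ties replicates to separate cultures or animals, so p-values measure only the spread between these libraries, which may be technical.

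Library totals were 28.8 to 35.6 M counts in macrophages, 30.6 to 36.5 M in fibroblasts and 19 to 61 M in the cells labelled aortic endothelial. The last had a low-input library kit, the others a directional kit, so kit and cell type cannot be told apart there. With a marker counted as present at a mean of 10 CPM (counts divided by the scaled library total in M), 12 of 12 macrophage markers were present in macrophages and 6 of 11 fibroblast markers in fibroblasts. Only 1 of 14 endothelial markers, Eng, was present in the cells labelled aortic endothelial, with Cldn5 at 0 in all 9 libraries, whereas 10 of 11 fibroblast and 6 of 8 smooth muscle markers were. Results on those cells therefore refer to their label. In macrophages, the third library of the 1 h group and that of the 2 h group differed from the rest of their groups and resembled each other's group, as the Socs3 values below show. Their library codes, 23 at 1 h and 22 at 2 h, run against the order of the other macrophage codes (14 and 15, 18 and 19). Whether these 2 labels were exchanged was not tested, and every macrophage mean and fold change at 1 and 2 h holds only as labelled. Macrophage results are given as labelled and again without those 2 libraries. That choice was made on the outcome after the values were seen, so the p-values of the second fit are too small. Over all genes the second unstimulated macrophage library also stood apart from its group, as given with the processing below, and was kept in both fits.

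Socs3, on chromosome 11 at 117966079 to 117970047 of GRCm38 (minus strand), was the family member with the widest spread in macrophages. The unstimulated libraries held 1.11, 1.06 and 0.992 CPM. Those labelled 1 h held 48.6, 49.5 and 1.24 CPM, and those labelled 2 h held 1.53, 2.14 and 51.5 CPM. All 6 ImP libraries lay above all 3 unstimulated ones, with 3 of the 6 at 48.6 to 51.5 CPM and the other 3 at 1.24 to 2.14 CPM. The counts behind these values were 1558, 1743 and 1611 in the 3 high libraries and 30 to 61 in the other 6.

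As labelled, Socs3 did not pass in any of the 3 macrophage comparisons, with wide SDs in both ImP groups. At 1 h Socs3 averaged 33.1 ± 28 CPM with ImP and 1.05 ± 0.059 CPM at 0 h (SD, n = 3 each), a log2 fold change of 4.96 (SE 2.03, unadjusted p = 0.0491, edgeR adjusted p = 0.922). At 2 h it averaged 18.4 ± 29 CPM with ImP, a log2 fold change of 4.12 against the same 0 h libraries (SE 2.03, edgeR adjusted p = 0.812). Between 2 h and 1 h the log2 difference was -0.84 (SE 1.54, edgeR adjusted p = 1.00).

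With the third library of both ImP groups left out, Socs3 was 46.3-fold higher at 1 h than at 0 h (log2 fold change 5.53, SE 0.146, edgeR adjusted p = 4.59e-11). At 2 h it was 1.72-fold higher than at 0 h, which did not pass (log2 fold change 0.79, SE 0.189, unadjusted p = 0.0011, edgeR adjusted p = 0.308). At 2 h against 1 h its log2 fold change was -4.75 (SE 0.162, edgeR adjusted p = 9.88e-10). In that fit 1 of 8 members was called higher at 1 h, beside 0.824% of 13465 genes, 0 of 8 at 2 h, beside 0.119% called in either direction, and 1 of 8 lower at 2 h than at 1 h, beside 0.609%. All 3 comparisons share libraries and are not independent of each other.

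The window at the start of Socs3 was searched for letters of the kind that STAT factors bind. The motif TTCNNNGAA, read on both strands, occurs 1 time in the RefSeq window of 250 bases before to 50 bases after the Socs3 start, and in 8.298% of 32851 such windows. It begins 154 bases upstream of that start. At 117969512 to 117969520 it lies inside the GENCODE interval of Socs3 given above, which reaches to 117970047. The stretch around it is shown because Socs3 had the largest fold change of the family in macrophages, and capitals mark the motif (RefSeq, GRCm38.p6, minus strand of chr11:117969472-117969561).

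Socs3: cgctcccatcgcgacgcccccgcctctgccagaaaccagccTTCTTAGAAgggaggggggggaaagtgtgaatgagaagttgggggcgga

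A RefSeq window was at hand for 4 members, Socs1, Socs3, Socs4 and Cish, so Socs2, Socs5, Socs6 and Socs7 were not searched. Of those searched, Cish also had STAT-type letters at its start. It holds 2 matches of TTCNNNGAA, the first beginning at the transcription start and the second 11 bases further on. Both are in capitals (RefSeq, GRCm38.p6, plus strand of chr9:107296654-107296683) and lie in the transcribed part of an annotated Cish transcript.

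Cish: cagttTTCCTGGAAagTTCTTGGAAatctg

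The same window of Socs1 and of Socs4 held no match of TTCNNNGAA. TTCNNNNGAA (in 6.953% of all windows), the AP-1 type motif TGANTCA (7.808%) and the NF-kB consensus (4.505%) had no match in the windows of Socs1, Socs3, Socs4 or Cish. A match in these windows is a description of letters and no evidence of binding.

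Cish, on chromosome 9 at 107296026 to 107302784 (plus strand), encodes a STAT5-induced inhibitor and was the least abundant member per length in macrophages. There it stood at 0.285, 0.287 and 0.628 CPM (0 h), 1.34, 1.02 and 0.203 CPM (1 h) and 0.445, 0.210 and 1.09 CPM (2 h). The 3 libraries with high Socs3 also had the 3 highest Cish values, from 1.02 to 1.34 CPM, against 0.203 to 0.628 CPM in the other 6. These values rest on 6 to 43 counts a library. As labelled the log2 fold change at 1 h was 1.09 (SE 0.704, edgeR adjusted p = 0.955) and that at 2 h 0.55 (SE 0.72, edgeR adjusted p = 0.924). Without the third ImP libraries the 1 h change was 1.56 (SE 0.576, unadjusted p = 0.018, edgeR adjusted p = 0.509) and the difference between 2 h and 1 h was -1.83 (SE 0.667, edgeR adjusted p = 0.672), neither of which passed.

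In fibroblasts Cish was at 6.26, 5.77 and 5.77 CPM (0 h), 7.36, 10.6 and 6.70 CPM (1 h) and 7.28, 6.93 and 5.83 CPM (2 h). All 3 libraries at 1 h lay above all 3 at 0 h. The log2 fold change of 0.47 had an unadjusted p of 0.0223 and did not pass (SE 0.182, edgeR adjusted p = 0.846). For the cells labelled aortic endothelial Cish ranged from 6.26 to 8.71 CPM over 9 libraries, with log2 fold changes of 0.13 at 1 h (SE 0.238) and 0.19 at 2 h (SE 0.238). Cish shares 261 exonic bases with Gm17040 and 479 with Gm17041 of the other strand. Whether counting used strand is not given in the sources used here, so its values may hold reads of those genes.

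**Figure D1:**
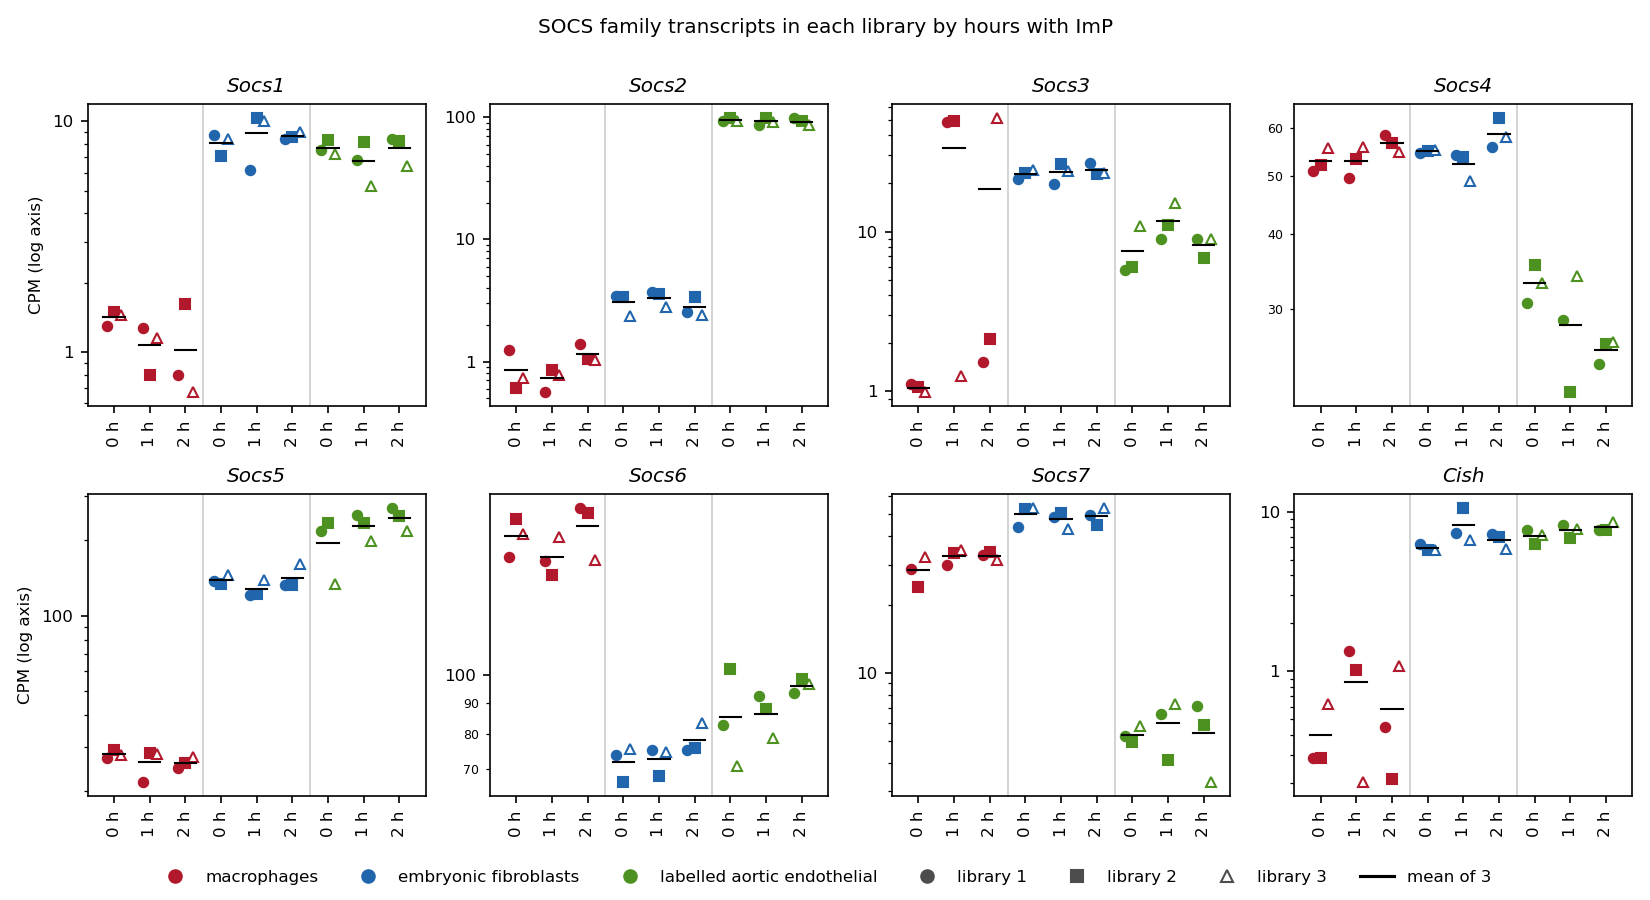
CPM of each SOCS family gene in all 27 libraries, on a log axis, by cell type and hours with ImP. Symbols mark the library number and bars the mean of 3. Values are scaled within each cell type, so small differences between cell types can change direction on a common scale. At 0 h Socs4 averaged 52.9 and 54.9 CPM in macrophages and fibroblasts here, and 61.4 and 48.4 CPM scaled over all 27 libraries. Socs3 in macrophages separates into 3 libraries near 50 CPM and 6 at 0.992 to 2.14 CPM, whereas Socs3 in fibroblasts stays between 19.9 and 26.9 CPM.

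Socs3 in fibroblasts had a higher level without ImP and no change that passed with it. It stood at 21.5, 23.4 and 24.2 CPM (0 h), 19.9, 26.4 and 24.0 CPM (1 h) and 26.9, 22.9 and 23.4 CPM (2 h). The groups overlapped, and the log2 fold changes of 0.03 at 1 h (SE 0.116, edgeR adjusted p = 0.983) and 0.08 at 2 h (SE 0.116, edgeR adjusted p = 1.00) had intervals of 2 SE reaching no higher than 0.26 and 0.31. Within the cells labelled aortic endothelial Socs3 was at 5.72, 6.02 and 10.8 CPM (0 h), 8.94, 11 and 15.1 CPM (1 h) and 8.98, 6.81 and 8.97 CPM (2 h). The third unstimulated library reached into the range of the 1 h libraries, and the log2 fold change at 1 h was 0.63 (SE 0.305, unadjusted p = 0.0583, edgeR adjusted p = 0.826).

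The difference in the Socs3 response between cell types was tested as an interaction over all 27 libraries. As labelled, the 1 h change in macrophages exceeded that in fibroblasts by 4.93 on the log2 scale (SE 1.45, unadjusted p = 0.00299, edgeR adjusted p = 1.00), and the 2 h change by 4.01 (SE 1.44, unadjusted p = 0.0117, edgeR adjusted p = 1.00). Neither passed. Without the third ImP macrophage libraries the 1 h difference was 5.5 (SE 0.339, edgeR adjusted p = 6.6e-10), 1 of 8 members called beside 0.148% of genes higher, and the 2 h difference was 0.67 (SE 0.358, edgeR adjusted p = 1.00). The Socs3 change in the cells labelled aortic endothelial minus that in fibroblasts was 0.56 at 1 h (SE 1.33) and 0.013 at 2 h (SE 1.32), and neither passed. These standard errors come from all 27 libraries, among them the third ImP macrophage libraries. Without those the differences were 0.57 at 1 h (SE 0.299, edgeR adjusted p = 0.543) and 0.011 at 2 h (SE 0.298), and again neither passed.

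Socs1, on chromosome 16 at 10782240 to 10785536 (minus strand), restrains interferon signalling and was scarce in macrophages. It stood at 1.30, 1.49 and 1.45 CPM (0 h), 1.28, 0.795 and 1.16 CPM (1 h) and 0.795, 1.61 and 0.672 CPM (2 h), on 21 to 52 counts a library. The 1 h libraries lay below the 0 h libraries without overlap, yet the log2 fold change of -0.40 did not pass (SE 0.379, edgeR adjusted p = 0.967). In fibroblasts Socs1 ranged from 6.15 to 10.4 CPM and in the cells labelled aortic endothelial from 5.26 to 8.38 CPM over 9 libraries. The ImP groups overlapped the 0 h groups in both, with log2 fold changes from -0.18 to 0.14.

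Socs2, on chromosome 10 at 95385362 to 95417180 (minus strand), encodes the inhibitor of growth hormone receptor signalling. Its values over 9 libraries ran from 0.562 to 1.40 CPM in macrophages, from 2.38 to 3.68 CPM in fibroblasts and from 86.0 to 99.6 CPM in the cells labelled aortic endothelial. The 3 cell types did not overlap, but the share of all genes separated in this way was not counted. With ImP its log2 fold changes were -0.22 at 1 h (SE 0.407) and 0.44 at 2 h (SE 0.401) in macrophages, 0.12 (SE 0.235) and -0.14 (SE 0.236) in fibroblasts, and -0.04 (SE 0.112) and -0.04 (SE 0.112) in the cells labelled aortic endothelial. None passed, and the interval of 2 SE in the last cells lay within -0.27 and 0.18 at both times. In macrophages all 3 libraries at 2 h lay above all 3 at 1 h, with 1.40, 1.05 and 1.02 CPM at 2 h, against 0.562, 0.851 and 0.781 CPM at 1 h (log2 difference 0.66, SE 0.403, edgeR adjusted p = 1.00).

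Socs4, on chromosome 14 at 47276931 to 47296102 (plus strand), is known for limiting epidermal growth factor receptor signalling and was the steadiest member in macrophages, at 49.6 to 58.4 CPM over 9 libraries. In fibroblasts it was at 54.6, 54.9 and 55.1 CPM (0 h), 54.1, 53.8 and 49.0 CPM (1 h) and 55.7, 62.4 and 58.1 CPM (2 h). The 1 h libraries lay below those at 0 h and the 2 h libraries above both. The difference of 0.17 between 2 h and 1 h had an unadjusted p of 0.0455 and did not pass (SE 0.0763, edgeR adjusted p = 0.400).

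In the cells labelled aortic endothelial Socs4 was at 30.7, 35.5 and 33.1 CPM (0 h), 28.7, 21.8 and 34 CPM (1 h) and 24.3, 26.2 and 26.4 CPM (2 h). The 2 h libraries all lay below those at 0 h. The log2 fold change at 2 h was -0.37 (SE 0.175, unadjusted p = 0.0544, edgeR adjusted p = 0.548). The 2 h change there minus that in fibroblasts was -0.50 on the log2 scale with an unadjusted p of 0.00467, which did not pass over all genes (SE 0.162, edgeR adjusted p = 0.440).

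Socs5, on chromosome 17 at 87107679 to 87137839 (plus strand), is likewise tied to epidermal growth factor receptor turnover. It ranged from 21.7 to 29.2 CPM in macrophages and from 121 to 161 CPM in fibroblasts, with log2 fold changes from -0.13 to 0.03. For the cells labelled aortic endothelial it was at 217, 234 and 134 CPM (0 h), 252, 235 and 197 CPM (1 h) and 269, 250 and 218 CPM (2 h). The third library at 0 h was the lowest of the 9. The log2 fold changes of 0.23 at 1 h (SE 0.18) and 0.33 at 2 h (SE 0.18) did not pass (edgeR adjusted p = 0.837 and 0.583).

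Socs6, on chromosome 18 at 88665224 to 88927481 (minus strand), whose product binds KIT and insulin receptor substrates, ranged from 146 to 189 CPM in macrophages, from 66.5 to 83.4 CPM in fibroblasts and from 70.7 to 102 CPM in the cells labelled aortic endothelial. Its macrophage values were 157, 181 and 171 CPM (0 h), 155, 146 and 169 CPM (1 h) and 189, 185 and 155 CPM (2 h). The 3 libraries with high Socs3 held the 3 lowest Socs6 values, with 157 CPM in an unstimulated library next to them. The difference between 2 h and 1 h was 0.17 as labelled (SE 0.0832, edgeR adjusted p = 1.00) and 0.31 without the third ImP libraries (SE 0.0777, unadjusted p = 0.00136, edgeR adjusted p = 0.151), and neither passed.

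Socs7, on chromosome 11 at 97362551 to 97398542 (plus strand), another partner of insulin receptor substrates, ranged from 23.9 to 34.8 CPM in macrophages, from 43.2 to 53.5 CPM in fibroblasts and from 3.29 to 7.29 CPM in the cells labelled aortic endothelial. In macrophages its log2 fold changes were 0.21 at 1 h (SE 0.103, unadjusted p = 0.0552) and 0.22 at 2 h (SE 0.103, unadjusted p = 0.0524). Neither passed over all genes (edgeR adjusted p = 0.922 and 0.797).

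As labelled, edgeR called 0 of 8 members at 1 h against 0 h in macrophages, where it called 0.0226% of 13251 genes, and 0 of 8 at 2 h against 0 h, where it called 0.0302%. It called 0 of 8 members and 0% of all genes between 2 h and 1 h in macrophages and in all 3 comparisons of fibroblasts (14066 genes) and of the cells labelled aortic endothelial (14779 genes). Members with an unadjusted p under 0.05 numbered 1 in macrophages at 1 h, 1 in fibroblasts at 1 h and 1 between fibroblast times, beside 693 of 13251, 826 of 14066 and 1709 of 14066 genes, and 0 in the other 6 comparisons. DESeq2 and limma-voom also called 0 in all 9. DESeq2 gave no adjusted p for Socs3 in macrophages, nor for Socs1, Socs2, Socs3 and Cish between 2 h and 1 h in fibroblasts. It also gave none for Socs3 in any comparison of cell types at 0 h. In the tests of differences between cell types edgeR and limma-voom called 0 of 8 members, and DESeq2 called 0 of the 7 other than Socs3, to which it gave no adjusted p. The edgeR counts stand beside 0.00587% of 17038 genes at 1 h and 0.0117% at 2 h for macrophages minus fibroblasts, and 0% at both times for the cells labelled aortic endothelial minus fibroblasts. The median log2 fold change of the 8 members at 1 h was -0.052 in macrophages, 0.021 in fibroblasts and 0.074 in the cells labelled aortic endothelial, against 0.003, 0.005 and 0.005 over all genes.

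The count of members whose groups of 3 libraries did not overlap was 0 to 2 of 8 in each comparison. In macrophages this held for 2 of 8 members at 1 h (Socs1, Socs3) against 10.4% of genes, for 1 at 2 h (Socs3) against 11.6%, and for 1 between 2 h and 1 h (Socs2) against 7.11%. In fibroblasts it held for 2 at 1 h (Socs4, Cish) against 10%, for 1 at 2 h (Socs4) against 8.99%, and for 1 between 2 h and 1 h (Socs4) against 18.4%. Within the cells labelled aortic endothelial it held for 0 at 1 h against 10.2%, for 1 at 2 h (Socs4) against 16.9%, and for 1 between 2 h and 1 h (Socs6) against 8.47%.

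**Figure D2:**
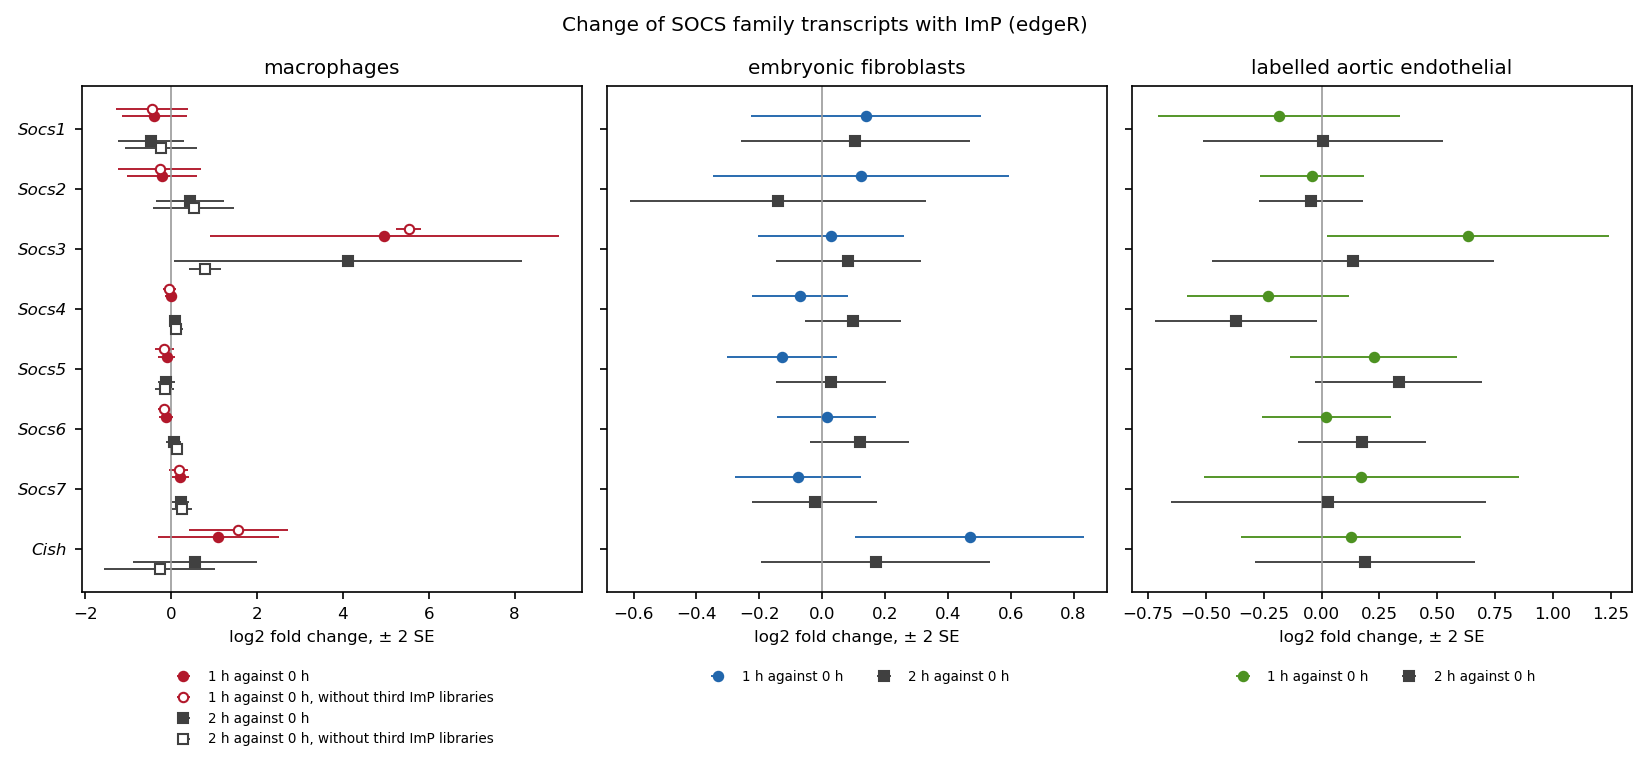
Log2 fold change of each SOCS family gene at 1 h (circles) and 2 h (squares) with ImP against 0 h, by edgeR, with bars of 2 SE; open symbols leave out the third ImP macrophage libraries, and the 3 panels have different scales. Socs3 in macrophages is at 4.96 and 4.12 with wide bars as labelled, and at 5.53 and 0.79 with narrow bars without those libraries. As labelled its bar at 2 h runs from 0.066 to 8.18, yet the edgeR unadjusted p is 0.087, so the bars do not stand for a test.

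Without ImP, the order of SOCS transcript levels differed between cell types. To compare genes, CPM scaled over all 27 libraries was divided by the length of the gene's exons in kilobases (CPM per kb). That length covers all annotated exons of a gene and not only those of the transcripts the cells held, so the order depends on it. In macrophages the order was Socs6 (17.4 CPM per kb), Socs4 (8.93), Socs5 (5.08), Socs7 (4.53), Socs1 (0.566), Socs3 (0.424), Socs2 (0.104) and Cish (0.0724). Socs5 overlapped Socs7, and Socs2 overlapped Cish, between libraries, and all other neighbours were separate. Socs4 to Socs7 thus held the top 4 places and the classical feedback members the lowest 4.

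In fibroblasts the order was Socs5 (19.1 CPM per kb), Socs4 (7.04), Socs3 (7.03), Socs7 (6.10), Socs6 (5.59), Socs1 (2.44), Cish (0.816) and Socs2 (0.283). Socs4 overlapped Socs3 and Socs7 overlapped Socs6. By CPM without division by length, Socs6 ranked 2 and Socs3 ranked 5 in fibroblasts, and in macrophages Socs7 ranked 3 and Socs5 ranked 4. In the cells labelled aortic endothelial it was Socs5 (29.4 CPM per kb), Socs2 (9.75), Socs6 (7.26), Socs4 (4.67), Socs1 (2.56), Socs3 (2.54), Cish (1.07) and Socs7 (0.716), with Socs1 and Socs3 overlapping. Socs5 alone made up 50.7% of the family's summed CPM per kb there, against 39.5% in fibroblasts and 13.7% in macrophages. In bulk libraries, fewer cells with a transcript and less transcript per cell cannot be told apart.

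**Figure D3:**
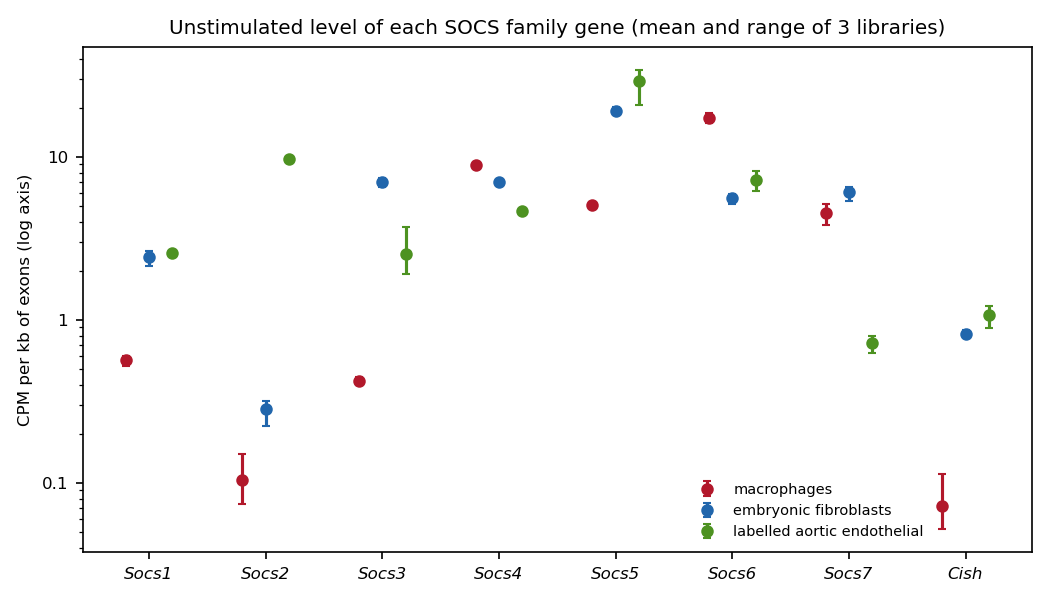
Level of each SOCS family gene without ImP in CPM per kb of exons on a log axis; points are means and bars the range of 3 libraries. The levels of Socs2 are 9.75, 0.283 and 0.104 CPM per kb in the cells labelled aortic endothelial, fibroblasts and macrophages, and those of Socs6 are highest in macrophages at 17.4.

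Unstimulated macrophages had less of the classical feedback members than fibroblasts and more Socs6. On CPM scaled over all libraries, Socs3 was at 1.23 ± 0.072 in macrophages and 20.3 ± 1.3 in fibroblasts (log2 fold change -4.05, SE 1.13, edgeR adjusted p = 0.00346), and Cish at 0.465 ± 0.23 and 5.24 ± 0.25 CPM (SD, n = 3 each; -3.50, SE 0.483). Socs1 (-2.11), Socs2 (-1.45) and Socs5 (-1.91) were also lower, and Socs6 (1.63) and Socs4 (0.34) higher. In all, 2 of 8 members were called higher and 5 lower, beside 32.7% and 35.5% of 17038 genes. The median over members was -1.680, against -0.065 over all genes. Socs7 missed the threshold (-0.43, SE 0.195, edgeR adjusted p = 0.0539). It passed in 9 of the fits that left out 1 library, with edgeR adjusted p from 0.0164 to 0.0495: these left out the third 0 h macrophage library, the first 0 h fibroblast library, or, among the cells labelled aortic endothelial, any 0 h library, library 1 or 2 at 1 h, or library 1 or 3 at 2 h.

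Scaling by library totals alone moved the median of all genes in this comparison by -0.415 and the share of higher genes among those called to 36.3%, against 47.9% with the main scaling. Socs4 then changed sign (log2 fold change -0.077, edgeR adjusted p = 0.56), and 1 member was called higher and 6 lower. Relative to the median of all genes Socs4 stood at 0.41 with the main scaling and 0.40 with library totals. Scaling shifts all genes nearly alike, so this likeness is no test of the Socs4 difference.

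The cells labelled aortic endothelial differed from fibroblasts most in Socs2 and Socs7. Socs2 was at 92.9 ± 2.5 CPM in the cells labelled aortic endothelial and 2.70 ± 0.51 CPM in fibroblasts, 34.3-fold higher (log2 fold change 5.10, SE 0.194, edgeR adjusted p = 7.3e-18). Socs7 was at 5.2 ± 0.61 and 44.3 ± 4.6 CPM (SD, n = 3 each; -3.09, SE 0.217). Socs5 (0.62) and Socs6 (0.38) were higher and Socs4 (-0.59) lower, so that 3 of 8 members were called higher and 2 lower, beside 37.2% and 34.9% of genes, with a median of 0.220 against 0.054. With library totals alone Socs6 did not pass (log2 fold change 0.21, edgeR adjusted p = 0.0951). Socs1 (0.06, SE 0.266) and Cish (0.39, SE 0.401) did not pass.

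Socs3 was lower in the cells labelled aortic endothelial than in fibroblasts, with means of 7.34 ± 2.9 and 20.3 ± 1.3 CPM (SD, n = 3 each), by a log2 fold change of -1.47 that did not pass (SE 0.957, edgeR adjusted p = 0.174). The 3 libraries of each group did not overlap, but the share of all genes separated in this way at 0 h was not counted. The standard error here comes from all 27 libraries, among them the third ImP macrophage libraries. Without those 2 the value was -1.48 (edgeR adjusted p = 1.54e-06), without the third 2 h macrophage library alone -1.48 (edgeR adjusted p = 0.0365), and in a fit of these 2 cell types alone -1.46 (edgeR adjusted p = 1.61e-05).

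Against the cells labelled aortic endothelial, macrophages were higher in 3 members, Socs4 (log2 fold change 0.94), Socs6 (1.26) and Socs7 (2.66), beside 36.1% of genes. They were lower in 5, Socs1 (-2.17), Socs2 (-6.55), Socs3 (-2.57), Socs5 (-2.53) and Cish (-3.89), beside 40.6%. The median was -2.353, against -0.126 over all genes. The call of Socs3 was close to the threshold (SE 1.11, edgeR adjusted p = 0.0422) and was lost in 15 of the 27 fits that left out 1 library, with edgeR adjusted p from 0.0501 to 0.122, namely those without any 1 of the 9 libraries labelled aortic endothelial, the 3 macrophage libraries at 0 h, fibroblast library 1 or 2 at 1 h or fibroblast library 3 at 0 h. Without the third ImP macrophage libraries it passed (-2.57, SE 0.25).

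Likeness was ranked by the correlation of log2(CPM + 0.5) among genes averaging 1 CPM or more. Predicted genes and genes named only by a clone were left out. Over the 9 macrophage libraries, with 10729 genes compared, the genes most like Socs3 were Nfkbiz (r = 0.998), Zfp36 (0.998), Il1b (0.998), Tnfsf9 (0.997) and Gdf15 (0.996). These 9 libraries fall into 3 with high and 6 with low Socs3, so each r describes that one split. Over the 9 group means of all cell types they were Nfkbiz (0.974), Nfkbia (0.932), Junb (0.896), Skil (0.875) and Rsph3b (0.818). In fibroblasts, where Socs3 stayed within 19.9 to 26.9 CPM, they were Cadm4 (0.927), Ccdc80 (0.927), Prss23 (0.898), Zxdb (0.897) and Bbc3 (0.896). In the cells labelled aortic endothelial they were Lrba (0.975), Abi3bp (0.955), Ciart (0.943), Mfsd10 (0.934) and Slc37a4 (0.913). The gene most like each other member, in the cell type where it varied most, was Tagap for Cish (0.965), Stat5a for Socs2 (0.932) and Rgsl1 for Socs1 (0.920) in macrophages, and Pabpc1 for Socs5 (0.985), Zfp287 for Socs6 (0.984), Mynn for Socs7 (0.934) and Pbld2 for Socs4 (0.919) in the cells labelled aortic endothelial. Libraries of a cell type were scaled together but differed in depth, and the correlations are given as descriptions.

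The rest of the pathway was read from lists of ligands, receptors, kinases, STAT factors and targets. As labelled, edgeR called 0 members of each list in each comparison of times within a cell type. In macrophages at 1 h this covered 4 ligands of gp130 receptors, 7 other JAK-STAT ligands, 5 and 15 receptors, 4 Janus kinases, 7 STAT factors, 11 other inhibitors, 4 partners of the SOCS box ligase, 12 other SOCS box proteins and 12 STAT3 and STAT5 target genes. The smallest p over these lists was that of Csf1, the macrophage growth factor gene (log2 fold change 0.32, SE 0.0954, unadjusted p = 0.00425), and among STAT factors that of Stat3 (0.16, SE 0.0622, unadjusted p = 0.0224). Neither passed (edgeR adjusted p = 0.922 for both). All 12 STAT3 and STAT5 targets had a positive fold change, with a median of 0.237 against 0.003 over all genes, and 0 were called. The 12 values come from the same libraries and are not independent of each other. The list was chosen with earlier results of these data known, so the shared sign is a description only.

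Without the third ImP macrophage libraries, 4 of 12 STAT3 and STAT5 targets and 1 of 4 gp130 ligands were called higher at 1 h, beside 0.824% of all genes. Of 8 other ligands Il10 was called higher. Il12b was also called, but it passed the count filter only through the libraries where it is high, so it is not counted. None of the 6 and 15 receptors, 4 Janus kinases, 7 STAT factors, 11 other inhibitors, 4 ligase partners and 12 other SOCS box proteins was called higher. The libraries of this fit were chosen on the outcome. Pim1, a kinase gene induced by STAT3 and STAT5, was at 125 and 130 CPM in the first 2 libraries at 1 h, against 56.6, 53.6 and 55.7 CPM at 0 h (log2 fold change 1.20, SE 0.0753, edgeR adjusted p = 3.85e-07). Pim3 (1.02), Bcl3 (0.78) and Cebpb (1.19) completed the 4.

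Among ligands, Osm, which encodes the gp130 cytokine oncostatin M, was at 14 and 12.5 CPM at 1 h, against 7.16, 9.48 and 8.0 CPM at 0 h (log2 fold change 0.68, SE 0.147, edgeR adjusted p = 0.0491). Il10, whose product signals through STAT3, was at 6.05 and 5.70 CPM at 1 h, against 0.919, 0.862 and 0.826 CPM at 0 h (2.75, SE 0.312, edgeR adjusted p = 0.000207). Il12b had 66 and 54 counts at 1 h, against 0, 0 and 5 counts at 0 h. It passed the count filter only through the libraries where it is high, so its call is no support and no fold is given. At 2 h against 0 h none of these lists had a member called, and at 2 h against 1 h Pim1 (-1.33), Pim3 (-1.02), Bcl3 (-0.68) and Il10 (-2.51) were lower. The third library labelled 2 h had 126 CPM of Pim1 and 5.66 CPM of Il10, and the third labelled 1 h had 48.8 CPM of Pim1 and 1.01 CPM of Il10, the layout seen for Socs3.

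**Figure D4:**
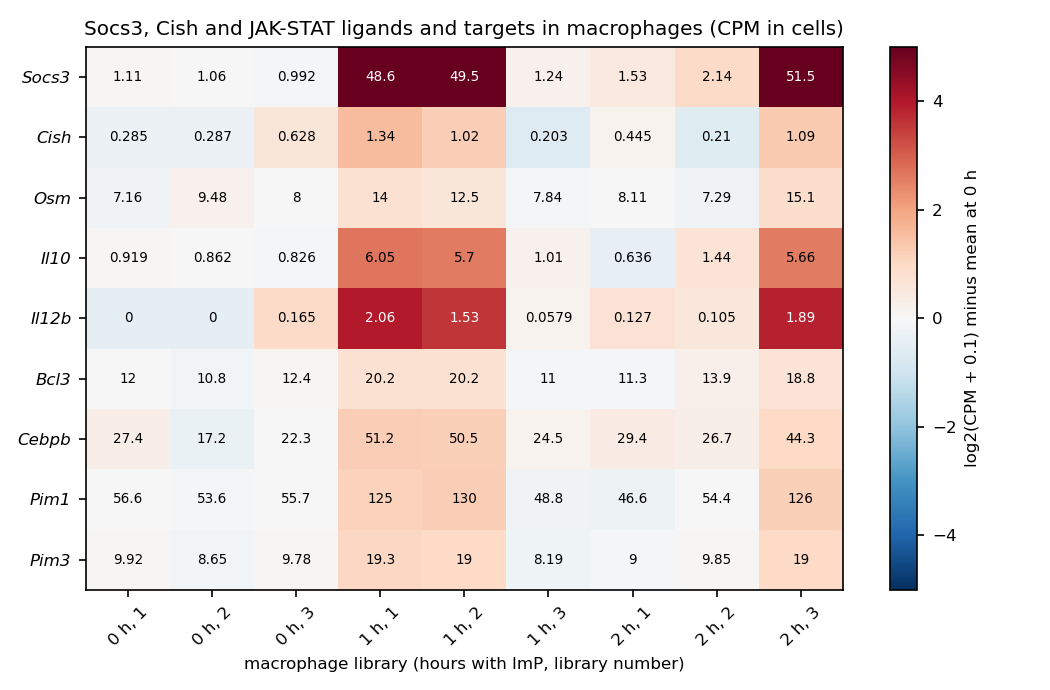
CPM of Socs3, Cish and the called ligands and STAT3 and STAT5 targets in each of the 9 macrophage libraries; colour is log2(CPM + 0.1) minus its mean over the 3 unstimulated libraries. The first 2 libraries at 1 h and the third at 2 h share high values, such as 48.6, 49.5 and 51.5 CPM for Socs3, and the third at 1 h is close to the unstimulated libraries.

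Summed neutrophil markers in macrophages were 15.5 to 18.7 CPM at 1 h and 11.9 to 15.4 CPM at 2 h, against 12.3 to 13.1 CPM at 0 h, over 8 markers, none of which averaged 10 CPM, with Ly6g at 0 in all 9 libraries. Lymphocyte markers summed to at most 0.80 CPM and dendritic cell markers to at most 1.54 CPM in any macrophage library. The part of such cells in the Socs3 values was not tested.

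In fibroblasts the target genes and ligands with the smallest p in their lists at 1 h were Junb (log2 fold change 0.55, SE 0.136, unadjusted p = 0.00206, edgeR adjusted p = 0.846), Lif (0.53, SE 0.167), Il6 (1.07, SE 0.356) and Csf2 (1.07, SE 0.341), none of which passed. For the cells labelled aortic endothelial the smallest p at 1 h belonged to Il6st, the gp130 gene itself (0.47, SE 0.14, unadjusted p = 0.00514, edgeR adjusted p = 0.826), and Stat5a was at 0.61 at 1 h and 0.79 at 2 h (SE 0.275 and 0.274, edgeR adjusted p = 0.826 and 0.539). None passed.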

How the data were processed

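The values used are expected counts per gene, not normalized, as deposited by the authors for 27 libraries. Per the submitters' processing notes the tools included cutadapt, FastQC, STAR, RSEM and DESeq2, and the builds mm10 and GRCm38.p6, with no role or order; their settings and the strand of counting are not given in the sources used here. All deposited counts were whole numbers, so rounding changed none. Genes were filtered with filterByExpr (minimum count 10), scaled by TMM and tested with edgeR 4.0.16 (quasi-likelihood, Benjamini-Hochberg adjusted p under 0.05), times within each cell type in a fit of its 9 libraries, cell types in a fit of all 27. DESeq2 1.42.0 and limma-voom (limma 3.58.1) were alternatives. CPM use the scaling of the fit concerned: within a cell type for values by library, and over all 27 libraries for comparisons at 0 h. Intervals span 2 SE and do not stand for a test. The lowest chi-square per degree of freedom among 27 replicate pairs was 5.89, so no pair was counted as 1 library. The second unstimulated macrophage library gave 62.64 against the first and 64.91 against the third, which gave 13.87 between them. The third ImP macrophage libraries gave 22.94 and 22.53 at 1 h and 18.98 and 20.11 at 2 h. Exon lengths and positions come from GENCODE M21 and sequences from RefSeq. The members and lists were chosen with earlier results of these data known. All 8 members are named, with up to 4 called genes a list, up to 2 where none was called, and for Socs3 the 5 most alike genes. Ghr and Il6st at 0 h were chosen after their values were seen. A list of target genes is not reported here.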

Additional observations from a re-analysis of the deposited data

How the results depend on the processing

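Leaving out the third macrophage library of both ImP groups, an alternative added after seeing the data, moved 4 counts of called members: to 1 at 1 h against 0 h in macrophages, 1 at 2 h against 1 h, and 1 for the 1 h change in macrophages minus fibroblasts, against 0 each as labelled, and to 6 between the cells labelled aortic endothelial and fibroblasts at 0 h, against 5. Socs4 between macrophages and fibroblasts at 0 h reversed to -0.077 with library totals alone. Socs3 between macrophages and the cells labelled aortic endothelial at 0 h did not pass with limma-voom (adjusted p = 0.243), without the filter (edgeR adjusted p = 0.0665) or in a fit of those cell types alone (0.0746); the cause was not tested. Socs7 between macrophages and fibroblasts passed with DESeq2 (adjusted p = 0.0456), limma-voom (0.00562), library totals (0.000293) and those cell types alone (0.00107). Calls over all genes were 3 at 1 h in macrophages as labelled, 125 without the third ImP libraries, 13 by DESeq2 and 9 without the filter; at 2 h they were 4, 16, 15 and 10, and between 2 h and 1 h 0, 89, 1 and 1. Between 2 h and 1 h in fibroblasts they were 0, with 308 by DESeq2 and 0 to 365 on leaving out 1 library. The labels give no shared replicate numbers. A replicate block on runs of library codes changed no count of called members, and same-run correlations were -0.213 to 0.098 in macrophages, -0.055 to 0.186 in fibroblasts and -0.033 to 0.132 in the cells labelled aortic endothelial, so that not every pair passed 0.1 in any cell type. Under the block 1158 genes had an unadjusted p under 0.05 at 1 h in fibroblasts, against 826 without it, and 1127 in the cells labelled aortic endothelial, against 733. In macrophages Cish, Socs1 and Socs2 rest on 6 to 52 counts a library, which limits the precision of their values.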

Other observations

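The kinases, receptors and ligase subunits with which SOCS proteins work also differed between the unstimulated cell types. All 4 Janus kinase genes were called higher in macrophages than in fibroblasts by edgeR, among them Tyk2 (log2 fold change 2.13) and Jak3 (3.43), and all 4 were called lower in the cells labelled aortic endothelial than in fibroblasts, among them Jak2 (-2.31) and Tyk2 (-1.50). All 7 STAT genes were higher in macrophages than in fibroblasts. Over all genes 32.7% were called higher in macrophages than in fibroblasts. Jak1 (0.39) lies within the shift of -0.415 that scaling by library totals gives the median of all genes there. In the cells labelled aortic endothelial 1 STAT gene was higher than in fibroblasts, Stat3 (1.33), and 3 were lower. All 4 partners of the SOCS box ligase were higher in the cells labelled aortic endothelial than in fibroblasts: Elob (2.06), Rnf7 (0.99), Eloc (0.82) and Cul5 (0.71). Over all genes 37.2% were called higher and 34.9% lower in that comparison.

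Of the gp130 family receptors 5 of 7 were called higher and 1 lower in the cells labelled aortic endothelial than in fibroblasts, and of 17 other JAK-STAT receptors 8 higher and 4 lower. In macrophages against fibroblasts 4 of 7 and 12 of 17 were higher and 1 and 3 lower, beside 32.7% and 35.5% of all genes. As examples chosen after their values were seen, Ghr, the growth hormone receptor gene, was at 746 CPM in the cells labelled aortic endothelial and 41.8 CPM in fibroblasts (log2 fold change 4.16), the same direction as Socs2. Il6st, which encodes gp130, was at 423 ± 31 CPM in macrophages and 172 ± 6.7 CPM in fibroblasts (SD, n = 3 each). The cell types differ in library kit, which cannot be told apart from cell type for the cells labelled aortic endothelial.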
